A study of Lactuca sativa with 12 samples.

Results

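Lettuce plants that had spent 7 d at 4 °C were compared with plants that had spent 4 h at 4 °C, so that a long exposure was set against a short one at the same temperature and in the same light. The plants were of the crisphead cultivar ‘Salinas’ (Lactuca sativa), and RNA was sequenced from their aerial tissue. Both groups had been raised at 20 °C under 350 to 400 µmol m−2 s−1 of light and were 18 days old when they were moved to 4 °C and about 100 µmol m−2 s−1, with a 16-h photoperiod throughout. Each of the 2 time-points had 3 replicates, so that 6 of the 12 samples of the series were compared, and the others (0 h at 20 °C and 24 h at 4 °C, 3 replicates each) gave the course in time and shared the estimate of the spread. The plants of 7 d were also older than those of 4 h, and age cannot be told apart from time in the cold. The hour of day at which each time-point was harvested and the number of plants in a replicate are not given in the sources used here.

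Genes were kept if they reached at least 0.5 CPM (reads of a gene per 1000000 reads of its library) in 2 or more of the 6 samples, and 21827 of the 23933 genes in the table did so. The gene just inside this limit had 0.501 CPM in its second-highest sample and the gene just outside it had 0.484 CPM. Of the 2106 genes left out, 1519 were under 0.5 CPM in every one of the 6 samples. Genes that reached 0.5 CPM at only 1 of the time-points passed through that time-point, which fixed the direction of their difference in advance. A difference was called at a log2 fold change of at least 1 in either direction together with a p-value, adjusted after Benjamini and Hochberg over all 21827 genes, of 0.01 or less from limma on log2(CPM + 1). Adding 1 CPM makes the log2 fold change of a weakly expressed gene smaller than the ratio of its mean CPM, and adjusted p-values and standard errors (SE) are from this test unless another is named.

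Cold acclimation is the gain of freezing tolerance by plants held for days at low, non-freezing temperature. Calcium signals, protein kinases and transcription factors of the CBF/DREB1 family respond early, and CBF proteins activate genes for dehydrins and other protective proteins. Over the following days plants adjust membranes, soluble sugars, photosynthesis and the machinery of protein synthesis to the cold.

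Between 18609189 and 25952306 reads per library lay on the genes of the table, so that 3 reads, taken as the floor of detection, were worth 0.116 to 0.161 CPM (counting error only). Replicates of 4 h and of 7 d correlated with r of at least 0.992 in log2 values over genes, which are not independent of each other, and no pair agreed within sampling noise. The exception in the series was 0 h replicate 3, with r of 0.980 and 0.982 to the other 0 h libraries. It enters the comparison only through the spread. Green leaf tissue was evident in all 12 samples, with summed levels of the photosynthesis genes from 20174 CPM upward. Lists of markers for other tissues were summed in the same way. Summed levels of 11 xylem and lignin genes were 89.3 to 115 CPM at 4 h and 44.5 to 51.8 CPM at 7 d, and those of 2 phloem genes were 72.0 to 77.3 CPM and 40.4 to 54.4 CPM. For 11 cuticle and epidermis genes they were 220.0 to 237 CPM and 187 to 193 CPM, for 13 genes of dividing cells 483 to 506 CPM and 330.2 to 348 CPM, and for 2 seed genes 0.422 to 0.533 CPM and 0.962 to 2.16 CPM. Seed gene Ls2g23681.2 was also listed among the cold protective proteins, and the sum of the seed genes was highest at 24 h, at 5.90 to 8.57 CPM. None of the markers was at 0 in all 3 libraries of 4 h or of 7 d. The groups did not overlap for any of the lists, with the seed genes the only ones higher at 7 d. Groups that did not overlap were also found for 64.5% of all genes tested. The markers were drawn from genes that the authors had called cold-regulated on these same samples, so the separate sums are not independent evidence on the tissues. Whether the tissues contributed different shares of the RNA was not tested, and in such bulk samples fewer cells of a type and less RNA per cell cannot be told apart.

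Between 7 d and 4 h, 2310 genes (10.6% of those tested) passed the threshold. Of these, 924 genes (4.23%) were higher and 1386 genes (6.35%) were lower at 7 d. The 3 replicates of one time-point lay entirely above those of the other for 14081 genes (64.5%), and did so for all 924 of the upregulated and 1379 of the 1386 downregulated genes. Most changes were moderate, with a median size on the log2 scale of 1.20 for upregulated and 1.41 for downregulated genes. At least a 4-fold change was reached by 57 upregulated and 251 downregulated genes.

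The balance of the 2 directions moved with the scaling of the libraries. The median log2 fold change over all genes was 0.11 under library-size scaling, as deposited, and 0.01 under TMM normalization, and changes are to be read against that shift. The 10 genes with most reads held 8.63 to 8.85% of the reads of a library at 4 h and 5.90 to 6.39% at 7 d. Upregulated genes made up 40.0% of the calls under library-size scaling, 27.5% under TMM normalization (620 higher, 2.84% of genes, and 1634 lower, 7.49%) and 26.2% under RLE normalization (592 higher, 2.71%, and 1669 lower, 7.65%). The edgeR quasi-likelihood test on reads recovered from the CPM values called 3209 genes (14.7%), 949 higher (4.35%) and 2260 lower (10.4%), and 2129 of these (92.2% of the 2310) were shared with limma in the same direction.

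**Figure D1:**
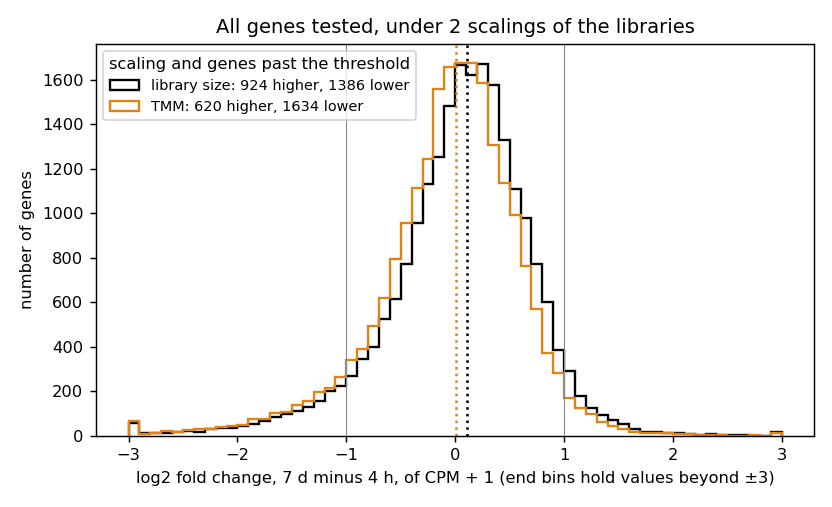
Number of genes by log2 fold change of 7 d minus 4 h, on CPM + 1, under library-size scaling (black) and TMM normalization (orange), with dotted lines at the medians (0.11 and 0.01) and grey lines at the 2-fold threshold. The orange curve lies to the left of the black one, and the genes past the threshold change from 924 higher and 1386 lower to 620 higher and 1634 lower.

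The genes called between 4 h and 7 d followed different courses from 0 h. Those higher at 7 d had a median log2 fold change against 0 h that went from -0.03 (4 h) through 0.52 (24 h) to 1.20 (7 d), and 884 of the 924 (95.7%) were nearer to their 0 h level at 4 h than at 7 d. Those lower at 7 d had medians of 0.90, -0.03 and -0.53, and here 597 of the 1386 (43.1%) were nearer to 0 h at 4 h and 789 (56.9%) at 7 d. The downregulated genes were thus a mixture of both courses. At 24 h the mean lay between those of 4 h and 7 d for 790 of the upregulated (85.5%) and 1170 of the downregulated genes (84.4%), while 112 upregulated genes (12.1%) were higher at 24 h than at either time-point. The genes were chosen by their difference between 4 h and 7 d, so these courses are a description.

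**Figure D2:**
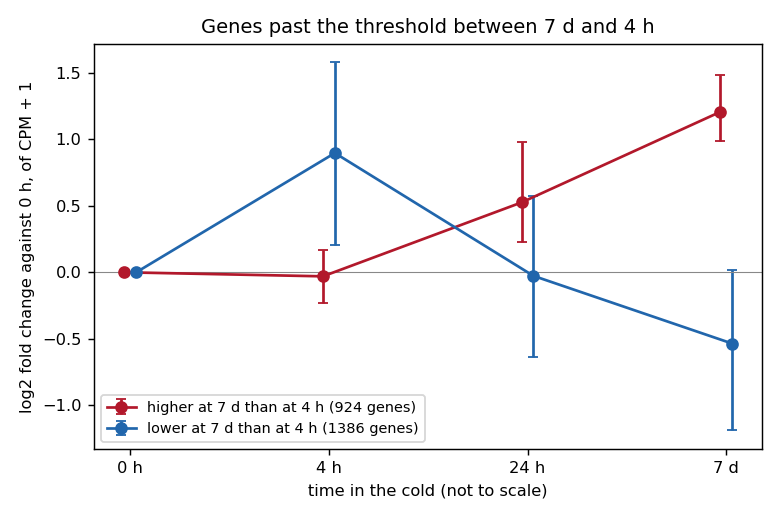
Median log2 fold change against 0 h, on CPM + 1, of the 924 genes higher (red) and the 1386 genes lower (blue) at 7 d than at 4 h, with bars from the lower to the upper quartile of genes and time-points not drawn to scale. Red medians go from -0.03 at 4 h to 1.20 at 7 d and blue medians from 0.90 to -0.53.

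Functions were read from gene descriptions, which were at hand for 1564 of the genes tested. These are in the main genes that the authors had called cold-regulated on these same samples, so their number of calls is high by choice and the lists drawn from them are not independent evidence of direction. Among the 1564 genes, 537 (34.3%) passed the threshold, 171 (10.9%) higher and 366 (23.4%) lower, with a median log2 fold change of -0.38. The edgeR test called 173 of the 1564 genes higher and 545 lower. Counts of a list are to be read against the values of the same test.

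The LsCBF genes were set out first, since CBF/DREB1 proteins are the early activators of cold-regulated genes. Of the 11 LsCBF genes in the table, 10 passed the filter, 7 were downregulated at 7 d and none was upregulated, with a median log2 fold change of -1.47. LsCBF11 (Ls9g54780.1) had 135, 130.2 and 138 CPM in the 3 replicates of 4 h against 22.1, 17.5 and 16.1 CPM at 7 d. Its log2 fold change was -2.80 (SE 0.144, adjusted p = 7.00e-08). LsCBF12 (Ls9g54680.3) had 46.9, 46.1 and 49.4 CPM at 4 h and 2.03, 2.12 and 1.84 CPM at 7 d, a mean level 23.7-fold higher at 4 h, and fell by 4.01 on the log2 scale. The replicates of each time-point lay close together in these genes, far from those of the other time-point.

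LsCBF10 (Ls9g54860.1) went from 34.6, 40.4 and 36.9 CPM to 1.55, 1.73 and 2.06 CPM, with a log2 fold change of -3.79 (SE 0.209, adjusted p = 1.16e-07). LsCBF7 (Ls9g54581.2) fell less, from 55.2, 67.6 and 56.3 CPM to 21.9, 23.0 and 24.4 CPM, which was 2.58-fold in mean level. Its level at 7 d remained above the 3.95, 5.44 and 4.14 CPM of the 0 h samples. LsCBF9 (Ls9g54880.1, -1.85), LsCBF5 (Ls9g54101.3, -1.61) and LsCBF3 (Ls9g53921.1, -1.25) completed the genes with a called fall, given here as log2 fold changes. Reads of LsCBF8, LsCBF9 and LsCBF10, which are near-identical copies, may have been split between them in counting, so the values of each one are uncertain.

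LsCBF4 (Ls9g53960.1) had 0.792, 0.373 and 1.07 CPM at 4 h and at most 3 reads in each library of 7 d, and LsCBF8 (Ls9g54900.1) had 0.633, 1.07 and 1.13 CPM at 4 h and 0.160, 0.154 and 0.0527 CPM at 7 d. Their groups did not overlap but their log2 fold changes, -0.67 and -0.78, did not reach the threshold on the CPM + 1 scale. Both were called lower at 7 d by edgeR on the recovered reads, with log2 fold changes of -3.27 (adjusted p = 0.00264) and -2.97 (adjusted p = 0.00104). LsCBF4 and LsCBF8, like LsCBF3, passed the filter through their 4 h samples alone. The direction of their difference was thus fixed in advance, and these calls are not independent evidence of a fall. LsCBF14 (Ls9g114720.1) was the only tested LsCBF gene with a positive value, at 36.1, 25.1 and 30.5 CPM at 4 h and 56.6, 44.8 and 52.0 CPM at 7 d. Its 3 replicates of 7 d lay above those of 4 h, and its log2 fold change of 0.73 (SE 0.185, adjusted p = 0.00552) was under the 2-fold threshold. LsCBF1 (Ls2g130641.1) did not pass the filter, with 0.317, 0.267 and 0.752 CPM at 4 h and 0.160, 0.0385 and 0.105 CPM at 7 d.

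**Figure D3:**
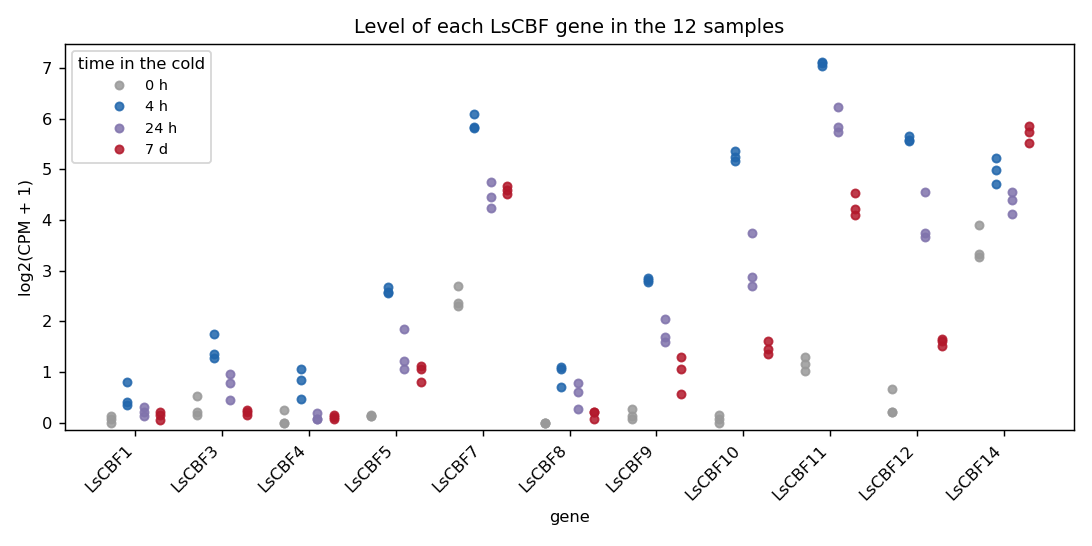
Level of each of the 11 LsCBF genes, as log2(CPM + 1), in the 3 replicates of 0 h (grey), 4 h (blue), 24 h (violet) and 7 d (red), 1 point per sample. For 10 of the genes the mean of 4 h is the highest of the 4 time-points, whereas for LsCBF14 the 7 d points lie above those of 4 h.

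Early signalling genes that passed the threshold were lower at 7 d in all but a few cases. Among 29 genes of calcium signalling, 15 were downregulated and 2 upregulated, with a median log2 fold change of -1.02. Ls4g156941.1, described as the calmodulin-like protein CML23, a small calcium sensor, had 48.2, 38.4 and 48.7 CPM at 4 h and 6.15, 4.55 and 4.43 CPM at 7 d, with a log2 fold change of -2.94 (SE 0.221, adjusted p = 1.03e-06). A calcium-binding protein of the type of the pollen allergen Ole e 8 (Ls3g53980.1) went from 149.6, 109 and 133 CPM to 21.9, 20.8 and 22.3 CPM. The calcium-binding protein PBP1 (Ls1g53381.1) fell by 2.73 on the log2 scale, from a mean of 8.27 ± 2.59 CPM to 0.364 ± 0.163 CPM (SD, n = 3). A calcium pump (Calcium-transporting ATPase 2, Ls4g160760.1), which removes calcium from the cytosol, fell from 278 ± 38.4 CPM to 50.1 ± 2.74 CPM (SD, n = 3). The 2 upregulated members were Calcium-dependent protein kinase 4 (Ls3g48441.3, log2 fold change 1.17) and a mitochondrial proton/calcium exchanger protein (Ls1g76500.2, 1.13).

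Receptor kinases, which perceive signals at the cell surface, were tested for 88 genes, of which 26 fell and 1 rose, a share of falls not far from the 23.4% of all described genes. The largest fall, -2.35 on the log2 scale, was that of Ls1g42701.1 (putative receptor-like protein kinase At5g39000), with 6.18, 10.4 and 5.48 CPM at 4 h and 0.214, 0.539 and 1.16 CPM at 7 d. Leucine-rich repeat receptor-like kinases Ls3g60980.1 and Ls1g28600.1 had log2 fold changes of -2.12 and -1.91. The edgeR test called 43 receptor kinases lower. Of 7 genes for MAP kinase cascades and the oxidative burst, Mitogen-activated protein kinase kinase 4 (Ls1g39620.1, -1.77) and Respiratory burst oxidase homolog protein C (Ls1g30481.3, -1.10), an NADPH oxidase that makes superoxide, were lower. The call of the latter was lost without 7 d replicate 1, at -0.89 (adjusted p = 0.0039), which leaves 1 of the 7 genes called, while edgeR called 4. Ubiquitin ligases, which mark proteins for degradation, fell in 11 of 33 cases and rose in 1. U-box domain-containing protein 4 (Ls4g131680.1) had 17.2, 15.4 and 17.8 CPM at 4 h and 3.31, 2.08 and 2.69 CPM at 7 d. RING-H2 finger protein ATL54 (Ls2g65961.1, -1.98) and PUB23 (Ls1g58201.1, -1.81), a ligase that dampens immune signalling in Arabidopsis, were also lower, and edgeR called 17 ligases lower.

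Stress-responsive transcription factors showed the same direction. Among 13 genes of the WRKY and ZAT families, 7 were downregulated and none was upregulated, with a median log2 fold change of -1.05. WRKY transcription factor 70 (Ls2g126880.1), a regulator of salicylic acid responses in Arabidopsis, had 50.5, 36.7 and 63.9 CPM at 4 h and 8.50, 5.47 and 7.75 CPM at 7 d and a log2 fold change of -2.63 (SE 0.194, adjusted p = 8.83e-07). WRKY transcription factor 46 (Ls3g139241.1) fell from 45.1, 27.6 and 41.3 CPM to 5.83, 4.66 and 5.74 CPM. The zinc finger repressor ZAT10 (Ls1g24181.1), which is induced by cold, drought and salt in Arabidopsis, fell from 30.9, 22.3 and 30.7 CPM to 5.51, 5.55 and 4.22 CPM. In these genes the lowest replicate of 4 h was above the highest of 7 d by several-fold.

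Other transcription factor families had fewer calls. Of 15 AP2/ERF genes other than LsCBF, 2 fell and 1 rose. Ethylene-responsive transcription factor 4 (Ls1g125981.1), a repressor, had 6.70, 3.36 and 8.49 CPM at 4 h and 0.214, 0.270 and 0 CPM at 7 d, and Ethylene-responsive transcription factor 5 (Ls2g128021.1) had a log2 fold change of -1.80. RAP2-12 (Ls1g38561.1), whose Arabidopsis counterpart takes part in oxygen sensing, was higher at 7 d, from 18.8, 16.6 and 18.1 CPM to 41.0, 36.1 and 41.5 CPM. Its log2 fold change of 1.10 became 0.98 under TMM normalization, under the threshold. Of 10 MYB genes 3 fell. MYB77 (Ls1g19840.1) fell by 1.54 and Myb-related protein 306 (Ls4g108080.3) by 1.48 on the log2 scale. MYB15 (Ls3g71181.1), which binds CBF promoters in Arabidopsis, had 4.65, 1.55 and 2.85 CPM at 4 h and 0.428, 1.04 and 0.422 CPM at 7 d, with a log2 fold change of -1.25 (SE 0.290, adjusted p = 0.00328). Its call was lost without 4 h replicate 1, at -0.96 (adjusted p = 0.0157), without 4 h replicate 3, at -1.24 (adjusted p = 0.0112), without 7 d replicate 1, at -1.16 (adjusted p = 0.0154), and without 7 d replicate 3, at -1.16 (adjusted p = 0.0151). Among 8 NAC genes, NAC domain-containing protein 2 (Ls3g101901.1) was the one that fell, from 45.6, 47.4 and 46.9 CPM to 11.0, 14.3 and 12.1 CPM. By edgeR, 5 of 10 MYB and 4 of 8 NAC genes were lower, against 545 of the 1564 described genes.

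Genes of the circadian clock and of light signalling were lower at 7 d in 9 of 18 cases and higher in 1, with a median log2 fold change of -0.93. REVEILLE 1 (Ls3g67100.1), a MYB-like factor that links the clock to auxin in Arabidopsis, had 282, 283 and 289.9 CPM at 4 h and 43.1, 49.1 and 53.5 CPM at 7 d. It differed by 5.87-fold in mean level, with a log2 fold change of -2.53 (SE 0.139, adjusted p = 1.10e-07). The B-box proteins 32 (Ls1g39541.1) and 30 (Ls3g41740.3), small proteins of light signalling, fell by 2.69 and 2.30 on the log2 scale. B-box zinc finger protein 32 had 51.6, 48.5 and 53.5 CPM at 4 h, 7.91, 7.40 and 6.11 CPM at 7 d and 1.13, 0.792 and 1.38 CPM at 0 h, so that all replicates of 7 d were still above those of 0 h. LHY (Ls3g140720.1), a morning component of the clock, had 61.0, 79.5 and 71.7 CPM at 4 h and 32.4, 27.4 and 30.7 CPM at 7 d. REVEILLE 8 (Ls2g109801.1, -1.15), a clock activator, its coactivators LNK2 (Ls1g114861.2, -1.49) and LNK4 (Ls1g118261.3, -1.22), and both Cyclic dof factor 3 genes (Ls4g108141.1, -1.99, and Ls1g14020.3, -1.63) were the remaining falls, given as log2 fold changes. SUPPRESSOR OF PHYA-105 1 (Ls3g139181.2), which represses light signalling, rose from 8.04 ± 1.45 CPM to 17.8 ± 3.12 CPM (SD, n = 3). This rise of 1.06 on the log2 scale became 0.94 in limma with TMM normalization, under the threshold. That setting left no gene of the list called higher, whereas edgeR called 1 higher. Levels of clock genes vary through the day, and a difference in the hour of harvest was not tested.

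The hormone genes that passed the threshold in limma were all lower at 7 d. They were 7 of 17 (41.2%) for abscisic acid, 3 of 9 (33.3%) for jasmonate and ethylene, and 4 of 22 (18.2%) for auxin. Among all described genes 23.4% were lower, so the auxin share was below that of the described genes. Abscisic acid 8-hydroxylase 1 (Ls3g20400.1), which inactivates abscisic acid, had 172, 159 and 183 CPM at 4 h and 22.3, 20.9 and 21.9 CPM at 7 d. Its log2 fold change was -2.92 (SE 0.242, adjusted p = 1.84e-06), and the levels of 7 d lay within the range of 0 h. Protein phosphatase 2C 3 (Ls2g118601.1), of a family that holds back abscisic acid signalling, went from 116, 126 and 119 CPM to 27.7, 27.1 and 28.9 CPM. The homeobox-leucine zipper protein ATHB-7 (Ls3g14441.1, -1.42) and 3 Ninja-family proteins, which act on abscisic acid signalling in Arabidopsis, were lower as well.

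Allene oxide synthase (Ls1g19560.1), an enzyme of jasmonate synthesis, fell from 34.4, 27.7 and 34.8 CPM to 14.3, 12.6 and 11.5 CPM. TIFY 9 (Ls3g31461.2), a jasmonate repressor, and a 1-aminocyclopropane-1-carboxylate synthase (Ls3g8840.1), the enzyme before ethylene, had log2 fold changes of -1.49 and -1.40. The auxin genes with the largest falls were a pair described as SAUR50 (Ls3g74220.1, -2.02, and Ls1g52081.1, -1.75) and PIN-LIKES 5 (Ls2g73961.1, -1.82), an auxin carrier. The latter had 16.4, 33.5 and 22.9 CPM at 4 h and 2.89, 7.86 and 8.38 CPM at 7 d, a wide spread within each group. Under TMM normalization 7 auxin genes passed, and by edgeR 5 jasmonate and ethylene genes and 8 auxin genes were lower, with 1 auxin gene higher.

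Cold protective proteins moved the other way. Of 11 dehydrin, late embryogenesis abundant and cold-shock genes listed, 9 passed the filter, 6 were upregulated at 7 d and none was downregulated, with a median log2 fold change of 2.52. These are hydrophilic proteins that protect membranes and other proteins when cells lose water. Dehydrin Rab18 (Ls3g74801.1) had 2.22, 2.56 and 2.04 CPM at 4 h and 74.9, 132 and 134 CPM at 7 d, a 49.9-fold higher mean, with a log2 fold change of 5.08 (SE 0.198, adjusted p = 1.27e-08). Its 7 d level was below the 252, 316 and 319 CPM of 24 h. Cold-shock protein CS120 (Ls3g76921.1), a dehydrin first named in wheat, went from 13.9, 14.2 and 14.6 CPM to 161, 172 and 195 CPM, and here too 24 h was higher, at 959, 1025 and 1037 CPM. A second CS120 gene (Ls3g77021.1) rose by 2.63 on the log2 scale, from 3.96, 1.97 and 4.19 CPM to 22.9, 26.7 and 26.5 CPM.

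Of the late embryogenesis abundant proteins, both genes described as ECP63 rose. Ls2g24040.2 had 148, 166 and 159 CPM at 4 h and 1009.7, 875 and 918 CPM at 7 d, and Ls2g23920.1 had 86.6, 105 and 88.8 CPM and 494, 469 and 522 CPM. Dehydrin COR47 (Ls3g74761.1) had 0.0528, 0.107 and 0.215 CPM at 4 h, near the floor of 3 reads, and 3.69, 5.05 and 8.38 CPM at 7 d. It was the one among these 6 genes whose mean at 7 d, 5.70 ± 2.41 CPM, was close to that at 24 h, 5.78 ± 1.39 CPM (SD, n = 3). The members that did not pass were Cold shock protein 1 (Ls0g39260.1, 0.83), Dehydrin Xero 1 (Ls3g75820.1, 0.68) and a desiccation protectant protein Lea14 homolog (Ls1g82580.3, -0.97). The last of these was called lower under TMM normalization (-1.09) and by edgeR (-1.10).

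Of 24 genes for sugar and proline metabolism, 3 (12.5%) were upregulated and 7 (29.2%) downregulated. These shares were not far from the 10.9% and 23.4% of all described genes. A soluble beta-fructofuranosidase (Ls2g125121.3), an invertase that splits sucrose, had 229, 160.3 and 198 CPM at 4 h and 1654, 1405 and 1377 CPM at 7 d, with a log2 fold change of 2.92 (SE 0.148, adjusted p = 6.37e-08). An acid beta-fructofuranosidase (Ls3g2180.1) fell from 16.2, 23.6 and 15.5 CPM to 1.23, 1.81 and 1.84 CPM. A second soluble isoenzyme gene (Ls2g128981.1, -1.89) also fell. Another (Ls2g125041.1) was called higher at 1.01, but had 0.89 under TMM normalization and 0.90 in the edgeR test, under the threshold in both. Beta-amylase 3 (Ls3g15861.1), a chloroplast enzyme that frees maltose from starch, went from 235, 257 and 247 CPM to 43.6, 40.2 and 38.9 CPM, both far above the 8.46, 10.6 and 7.43 CPM of 0 h. Granule-bound starch synthase 1 (Ls2g73301.1, log2 fold change -1.92), which makes amylose, was lower, and Fructan 6-exohydrolase (Ls3g23920.3, 1.64), which releases fructose from fructans, was higher. Outside the list, a plastidic glucose transporter (Ls4g102640.1) rose from 6.55, 7.36 and 5.91 CPM to 36.6, 40.7 and 39.0 CPM.

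Fatty acid desaturases, which add double bonds to membrane lipids, were lower in 3 of 10 cases (30%) and higher in none. Among all described genes 23.4% were lower, a share not far from this. Ls3g133981.1, described as a Delta(12)-acyl-lipid-desaturase, had 28.5, 15.9 and 19.1 CPM at 4 h and 8.23, 6.47 and 4.16 CPM at 7 d. A Delta(12) fatty acid desaturase DES8.11 (Ls3g133940.2) and an acyl-lipid (9+3)-(E)-desaturase (Ls2g101240.1) had log2 fold changes of -1.52 and -1.32. In the flavonoid and ultraviolet list, 3 of 14 genes (21.4%) fell and none rose, a share of falls near that of all described genes. Phenylalanine ammonia-lyase 3 (Ls2g106520.1), the entry enzyme of phenylpropanoids, fell from 336, 282 and 345 CPM to 173, 136 and 127 CPM. A (6-4)DNA photolyase (Ls4g104581.1, -1.22), which repairs ultraviolet damage, and an anthocyanin malonyltransferase (Ls2g39381.1, -1.16) were the others. Chalcone synthase (Ls2g76880.1), the first enzyme of the flavonoid branch, had means of 206 ± 14.7 CPM (4 h) and 213 ± 41.9 CPM (7 d; SD, n = 3), with a log2 fold change of 0.04.

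Of 15 antioxidant genes, 3 rose and 1 fell. Superoxide dismutases remove superoxide, and the chloroplast iron form (Ls3g34561.3) went from 50.5, 58.2 and 55.0 CPM to 143, 144 and 147 CPM, while the mitochondrial manganese form (Ls2g125000.3) rose by 1.33 on the log2 scale. Microsomal glutathione S-transferase 3 (Ls2g72121.2) had 0.686, 0.320 and 0.484 CPM at 4 h and 11.7, 3.58 and 3.32 CPM at 7 d, with replicate 1 of 7 d far above the others. CDSP32 (Ls0g661.1), a thioredoxin of the chloroplast, fell from 699, 721 and 707 CPM to 206, 235 and 227 CPM.

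**Figure D4:**
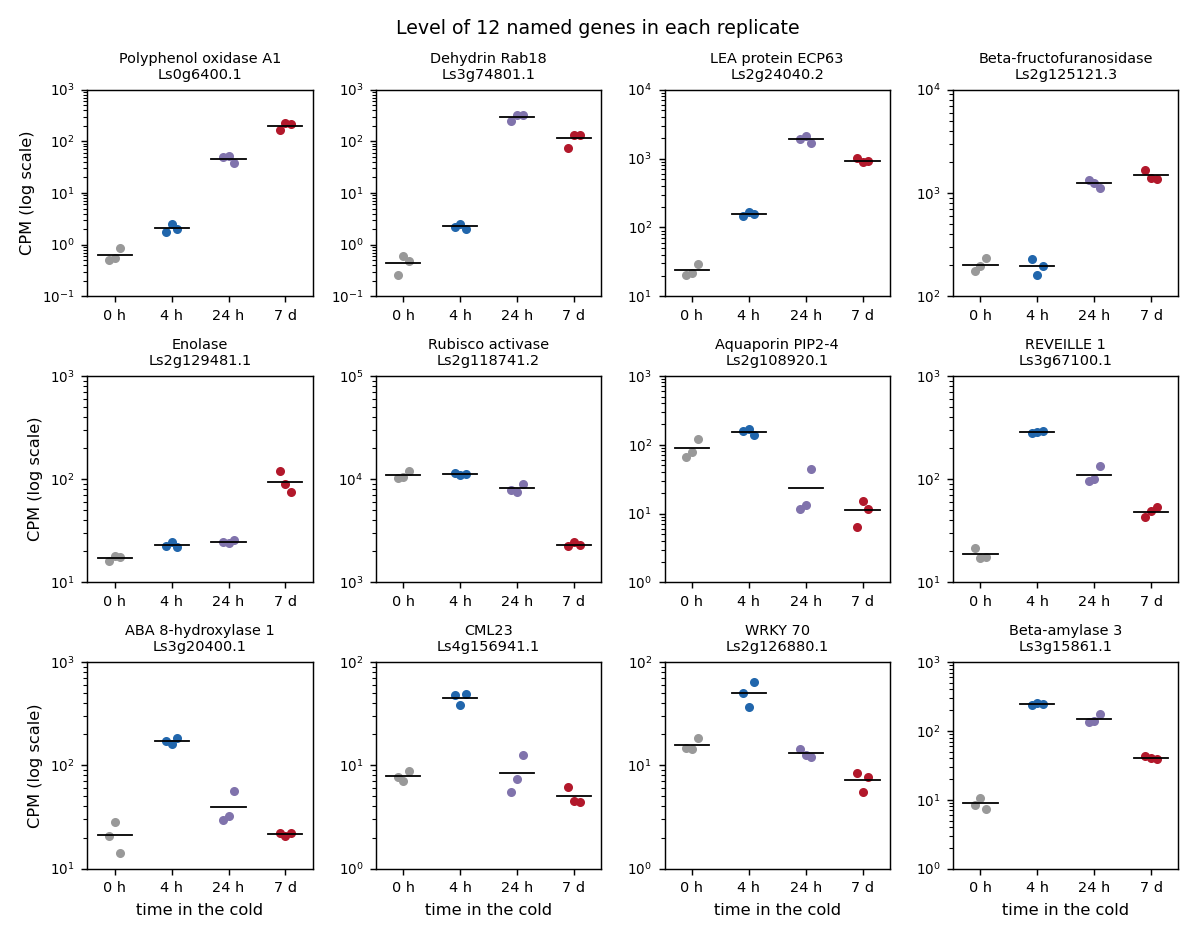
Level of 12 named genes in CPM (log axes, which differ between panels) in the 3 replicates of 0 h (grey), 4 h (blue), 24 h (violet) and 7 d (red), with a line at the mean of each time-point. The first 5 panels show genes higher at 7 d than at 4 h and the other 7 panels genes lower at 7 d, and the 4 h and 7 d points do not overlap, which was a condition for naming these genes.

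Genes of the lists for protein synthesis (ribosome and nucleolus, tRNA and RNA helicases) were higher at 7 d or not called. A gene described as a translation initiation factor subunit, outside these lists (Ls1g83221.1), fell, with a log2 fold change of -3.91. Of 27 genes for ribosomes and the nucleolus, where ribosomes are assembled, 13 were upregulated and none was downregulated, with a median log2 fold change of 0.99. Under TMM normalization the median was 0.87 and 9 genes passed. H/ACA ribonucleoprotein complex subunit 2-like protein (Ls2g112741.1), part of the complex that modifies ribosomal RNA, had 28.0, 30.4 and 30.6 CPM at 4 h and 117, 97.5 and 101 CPM at 7 d, with a log2 fold change of 1.79 (SE 0.112, adjusted p = 3.28e-07). Nucleolar protein 5-2 (Ls1g62020.3) went from 85.8, 89.1 and 92.8 CPM to 291, 249 and 258 CPM, and subunit 4 of the H/ACA complex (Ls2g87640.1) from 97.1, 88.8 and 97.6 CPM to 253, 228 and 233 CPM. The levels of 4 h were close to those of 0 h in these genes, with 24 h in between.

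The rise of tRNA genes had 4 of 8 members past the threshold and none lower. It included the processing enzyme tRNase Z TRZ1 (Ls4g107600.2), at 3.33, 3.47 and 3.65 CPM and 11.2, 14.2 and 10.7 CPM, and a tRNA (guanine(26)-N(2))-dimethyltransferase (Ls2g125021.1, log2 fold change 1.22). A tRNA uridine 5-carboxymethylaminomethyl modification enzyme (Ls3g126721.2, 1.12) and Serine--tRNA ligase (Ls3g25760.1, 1.07), which loads serine onto its tRNA, were both under the threshold with TMM normalization, and edgeR called all 4. Among 7 RNA helicases all log2 fold changes were above 0, from 0.62 to 1.06, and above 0 under TMM normalization too, but the largest alone, that of RNA helicase 13 (Ls2g42041.3), of the DEAD-box type, passed. Helicase 13 had 0.94 under TMM normalization and 0.96 in the edgeR test, both under the threshold.

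Pentatricopeptide repeat proteins, which process RNA in chloroplasts and mitochondria, were upregulated in 5 of 24 cases and downregulated in none (3 under TMM normalization). Ls2g106441.1 had the largest rise of these, with 221, 273 and 243 CPM at 4 h and 1046, 1024 and 1068 CPM at 7 d. Ls3g38180.1 (1.43) and Ls1g9961.1 (1.39) followed by log2 fold change. Mitochondrial genes for carriers, protein import and respiration rose in 8 of 17 cases and fell in 1. Prohibitin-3 (Ls0g11921.3), a scaffold of the inner membrane, had 30.9, 30.3 and 32.1 CPM at 4 h and 124, 98.7 and 93.3 CPM at 7 d. An external alternative NAD(P)H-ubiquinone oxidoreductase (Ls1g126860.2), which feeds electrons into the respiratory chain past the first complex, rose from 6.65, 8.05 and 6.99 CPM to 24.3, 23.8 and 18.2 CPM. The one that fell was Mitochondrial outer membrane protein porin 2 (Ls4g160741.1), from 31.8, 29.5 and 32.5 CPM to 6.04, 5.51 and 3.95 CPM.

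Glycolysis and its neighbouring steps had 5 of 10 genes higher and 2 lower, with a median log2 fold change of 1.10. Enolase (Ls2g129481.1) had 22.4, 24.8 and 22.0 CPM at 4 h and 119, 89.9 and 74.4 CPM at 7 d, with a log2 fold change of 1.96 (SE 0.142, adjusted p = 7.77e-07). A cytosolic glyceraldehyde-3-phosphate dehydrogenase (Ls0g11900.1) went from 1.95, 1.28 and 1.77 CPM to 11.8, 9.86 and 10.3 CPM, and Pyruvate kinase 2 of the cytosol (Ls1g50700.3) from 27.8 ± 0.548 CPM to 75.4 ± 8.98 CPM (SD, n = 3). The 2 lower members were not cytosolic glycolytic enzymes but Plastidial pyruvate kinase 4 (Ls2g135900.1, -1.78) and Phosphoenolpyruvate carboxylase kinase 2 (Ls2g107961.3, -1.67). At 24 h the means of enolase and the dehydrogenase were 24.9 and 2.81 CPM, far below those of 7 d.

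Chaperones, which assist protein folding, were lower in 4 of 23 cases (17.4%) and higher in 2 (8.7%), and edgeR called 7 lower and 3 higher. The limma shares were below the 23.4% and 10.9% of all described genes. Heat shock 70 kDa protein 3 (Ls1g93321.1) had 6.97, 1.28 and 1.67 CPM at 4 h and 0.588, 0.154 and 0 CPM at 7 d, with replicate 1 of 4 h far above the other replicates. Its log2 fold change of -1.57 (SE 0.362, adjusted p = 0.00307) became -1.01 without 4 h replicate 1, and its call was lost without 7 d replicate 2, at -1.53 (adjusted p = 0.0118), without 7 d replicate 3, at -1.43 (adjusted p = 0.0152), and in a fit to the 6 samples alone (adjusted p = 0.0187). Chaperone protein dnaJ 8 of the chloroplast (Ls1g30900.1, -1.41) fell and DnaJ homolog subfamily B member 7 (Ls1g37680.3, 1.21) rose.

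Photosynthesis genes were among those with many falls. Of 20 genes tested, 13 were downregulated and none was upregulated, with a median log2 fold change of -1.13. The summed level of the 21 listed genes was 60709 to 62225 CPM at 4 h and 20174 to 20470 CPM at 7 d, against 64249 to 66594 CPM at 0 h and 44026 to 49740 CPM at 24 h. A small subunit of Rubisco (Ls4g153980.1), the enzyme that fixes carbon dioxide, had 13616, 13188 and 13144 CPM at 4 h and 2554, 2483 and 2399 CPM at 7 d, with a log2 fold change of -2.43 (SE 0.0808, adjusted p = 2.25e-09). Rubisco activase (Ls2g118741.2), which keeps that enzyme active, went from 11576, 11057 and 11170 CPM to 2237, 2458 and 2298 CPM. All 5 Rubisco small-chain genes were lower, the others being Ls2g79581.1 (-2.05), Ls2g79541.1 (-1.45), Ls2g79600.1 (-1.33) and Ls2g79501.1 (-1.16). These are similar copies whose reads may have been shared out in counting.

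Light-harvesting and photosystem genes passed the threshold in part. Chlorophyll a-b binding protein 16 (Ls2g102941.1), an antenna protein, had 1148, 1188 and 1121 CPM at 4 h and 329.5, 369 and 377 CPM at 7 d, and Chlorophyll a-b binding protein 21 (Ls1g95341.1) had 2184, 2254 and 2162 CPM and 1062, 942 and 1045 CPM. Photosystem I subunits VI (Ls1g35241.1, -1.53) and N (Ls1g10061.1, -1.13), Oxygen-evolving enhancer protein 2 (Ls3g35220.2, -1.14) of photosystem II, a chlorophyll synthesis enzyme, Divinyl chlorophyllide a 8-vinyl-reductase (Ls3g24840.1, -1.07), and a carbonic anhydrase (Ls0g19321.2, -1.55), which supplies carbon dioxide, were the remaining falls, as log2 fold changes. Below the threshold were Chlorophyll a-b binding protein P4 (Ls4g109340.2, -0.83), Oxygen-evolving enhancer protein 3-2 (Ls1g123241.1, -0.75), PSB27-H1 (Ls3g39480.1, -0.75), Photosystem I subunit IV A (Ls2g15600.3, -0.68) and a second carbonic anhydrase (Ls3g48361.1, -0.92). The last of these was called lower under TMM normalization, by edgeR (-1.26) and without 7 d replicate 1 (-1.03). Alpha carbonic anhydrase 7 (Ls1g51401.1) had a log2 fold change of -0.02, whose sign changed when 4 h replicate 2 (0.07) or 7 d replicate 3 (0.18) was left out. PHOTOSYSTEM I ASSEMBLY 2 (Ls1g68280.2), a protein that helps to build the photosystem, was the one member with higher values at 7 d, 149.8, 149.7 and 148 CPM against 82.9, 85.2 and 83.4 CPM, at a log2 fold change of 0.82 under the threshold. Alpha carbonic anhydrase 4 (Ls1g51381.2) did not pass the filter, at 0.686, 0.373 and 0.484 CPM and 0, 0 and 0.0527 CPM.

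Water channels were downregulated in 10 of 15 cases and upregulated in none, with a median log2 fold change of -1.32. Aquaporin PIP2-4 (Ls2g108920.1), of the plasma membrane, had 157, 168 and 138 CPM at 4 h and 6.47, 15.2 and 11.8 CPM at 7 d, with a log2 fold change of -3.74 (SE 0.422, adjusted p = 1.80e-05). Aquaporin TIP1-1 (Ls1g51360.1), of the vacuole membrane, went from 27.9, 60.3 and 27.1 CPM to 0.855, 2.58 and 3.21 CPM. Aquaporin PIP2-2 (Ls2g109001.2) went from 20.1, 22.9 and 23.6 CPM to 1.39, 2.20 and 1.69 CPM. The spread among replicates was wide in the first pair. A second TIP1-1 gene (Ls1g64661.1) fell by 1.32 on the log2 scale, from 838 ± 29.1 CPM to 337 ± 24.7 CPM (SD, n = 3). Aquaporin SIP1-2 (Ls2g59281.1) had the highest value of the list, 0.79, under the threshold.

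Nitrogen uptake and transport genes were lower in 6 of 18 cases (33.3%) and higher in none, against 23.4% and 10.9% of all described genes. The edgeR test called 10 of the 18 lower, against 545 of the 1564 described genes. High-affinity nitrate transporter 2.1 (Ls1g62501.1) had 5.49, 6.77 and 9.51 CPM at 4 h and 0.0534, 0 and 0.0527 CPM at 7 d, that is, at most 1 read in each library of 7 d. It passed the filter through its 4 h samples alone. Protein NRT1/ PTR FAMILY 8.1 (Ls1g16521.1) went from 13.2, 13.2 and 11.2 CPM to 0.802, 1.00 and 0.632 CPM, with a log2 fold change of -2.90 (SE 0.174, adjusted p = 2.23e-07). NRT1/ PTR FAMILY 5.1 (Ls2g126100.1, -1.93) and a cytosolic glutamine synthetase (Ls3g63880.1, -1.85), which assimilates ammonium, were also lower.

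Among cell wall genes, 4 of 38 were higher and 5 lower. The share of rises was near the 10.9% of all described genes, and that of falls was below their 23.4%. By edgeR, 12 of the 38 were lower, against 545 of the 1564 described genes. Expansin-like A1 (Ls3g47800.1), of a family that loosens cell walls, had 8.13, 5.06 and 6.34 CPM at 4 h, 56.3, 70.1 and 69.8 CPM at 24 h and 28.6, 23.5 and 24.6 CPM at 7 d. A xyloglucan endotransglucosylase/hydrolase (Ls2g80380.1), which cuts and rejoins wall polymers, rose from 3.01, 1.44 and 2.90 CPM to 5.51, 17.8 and 8.59 CPM. Its log2 fold change of 1.65 was no longer called without 4 h replicate 2, at 1.41 (adjusted p = 0.0107). Pectinesterase inhibitor 7 (Ls2g128901.1, -1.59) and a pair of other xyloglucan endotransglucosylase/hydrolases (Ls4g159341.1, -1.40, and Ls3g84840.1, -1.22) were lower.

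Among disease resistance proteins, intracellular immune receptors in the main, 6 of 49 (12.2%) were lower and none was higher, and edgeR called 12 lower. The limma share of falls was below the 23.4% of all described genes. TMV resistance protein N (Ls1g91940.1) had 29.9, 26.4 and 33.3 CPM at 4 h and 3.42, 5.82 and 6.17 CPM at 7 d. Further genes of that name, Ls1g91860.3 and Ls2g13161.1, had log2 fold changes of -1.69 and -1.60, and reads may be shared between members of this family.

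Among the tissue markers, single genes that passed in limma were lower at 7 d with the exception of 2 genes of DNA replication. Of the 11 xylem and lignin genes 5 fell, among them a glucuronoxylan glucuronosyltransferase of the secondary wall (Ls1g64481.1, -1.87), Laccase-11 (Ls2g76580.1, -1.53) and Cinnamoyl-CoA reductase 2 (Ls2g4060.3, -1.30), both of lignin formation. Of 10 cuticle genes tested, 3-ketoacyl-CoA synthase 11 (Ls3g123820.1, -1.34), which lengthens fatty acids, and ECERIFERUM 26 (Ls2g47300.1, -1.12), of wax synthesis, fell. The call of the latter was lost without 4 h replicate 1, at -0.98 (adjusted p = 0.00656), and without 7 d replicate 3, at -0.96 (adjusted p = 0.00668), which leaves 1 cuticle gene called, while edgeR called 3 lower and 1, Fatty acyl-CoA reductase 2 (Ls1g58840.1, 1.12), higher. Of 13 genes of dividing cells, Histone H1 (Ls3g73941.3, -1.55) and Histone H2B.3 (Ls1g55740.1, -1.03) fell, whereas DNA polymerase epsilon subunit B (Ls2g15241.2, 1.59) and Origin of replication complex subunit 2 (Ls1g20280.1, 1.27) rose, and edgeR called 5 lower and 2 higher. The polymerase subunit had 6.44, 4.58 and 5.05 CPM at 4 h and 17.4, 17.1 and 19.6 CPM at 7 d. Neither the phloem genes nor the seed gene that was tested passed the threshold, although edgeR called the seed gene higher.

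**Figure D5:**
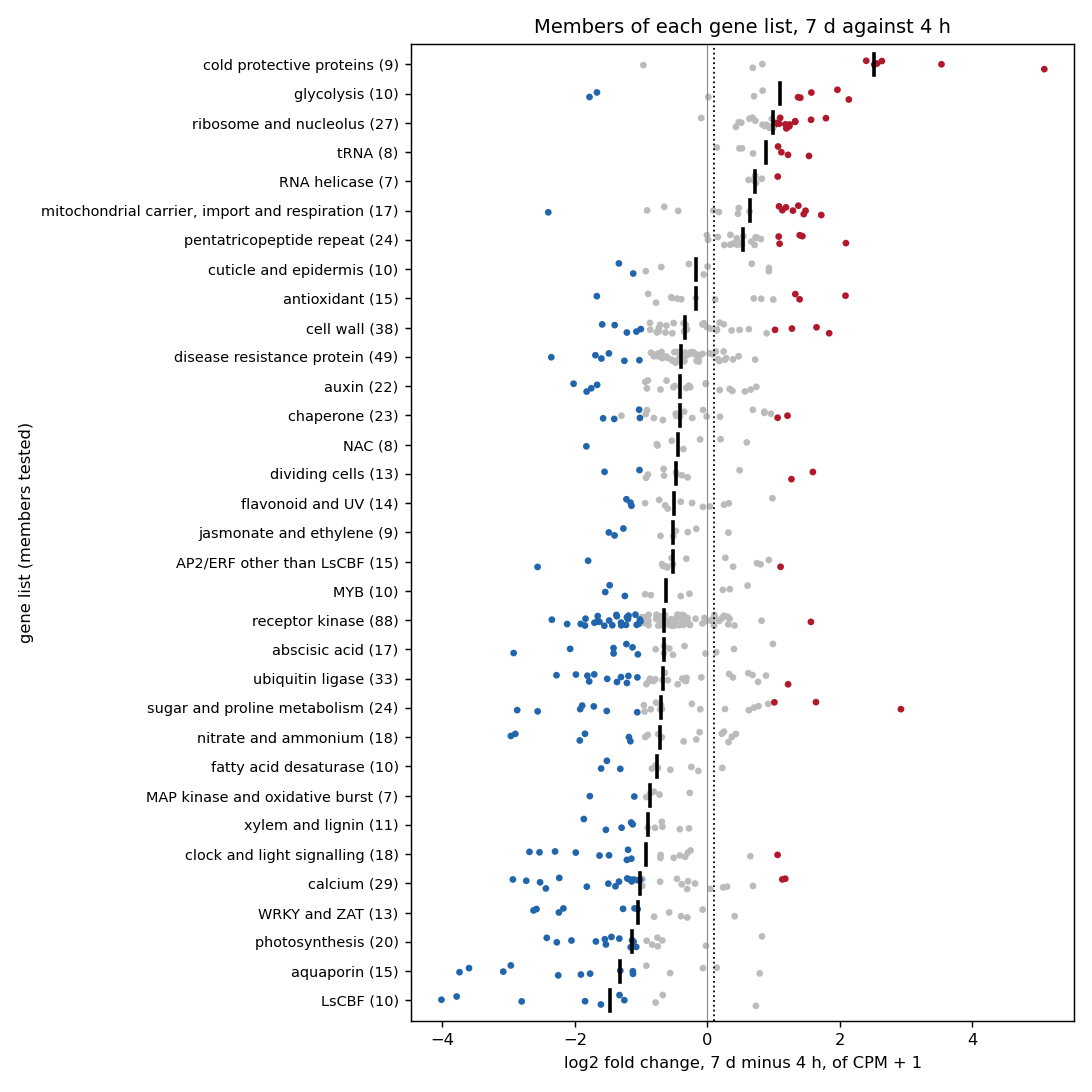
Log2 fold change of 7 d minus 4 h, on CPM + 1, of the members of each gene list with at least 7 tested members (their number in parentheses), with genes past the threshold higher (red) or lower (blue) at 7 d, others in grey, black bars at the list medians and a dotted line at the median of all genes, 0.11. Medians run from -1.47 for LsCBF to 2.52 for cold protective proteins.

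On the CPM + 1 scale, the largest rise of a described gene was that of Polyphenol oxidase A1 (Ls0g6400.1), the copper enzyme behind the browning of cut leaves. It had 1.74, 2.51 and 2.04 CPM at 4 h and 164, 225 and 214 CPM at 7 d, a 95.9-fold higher mean, with a log2 fold change of 6.02 (SE 0.156, adjusted p = 2.55e-10). At 24 h it had reached 49.5, 51.0 and 38.0 CPM. BURP domain-containing protein 3 (Ls1g59360.3), of a plant family named after its shared domain, came next after Dehydrin Rab18, with 1.11, 2.13 and 1.77 CPM at 4 h, 11.6, 11.7 and 9.33 CPM at 24 h and 55.5, 53.9 and 64.2 CPM at 7 d. In both genes every replicate of 7 d was above those of 24 h, whereas in the called cold protective genes other than COR47 every replicate of 7 d was below those of 24 h.

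Larger still on the CPM + 1 scale was the rise of Ls4g84040.2, for which no description was at hand. It had 9.03, 9.86 and 9.67 CPM at 4 h and 1734, 1387 and 1512 CPM at 7 d, with a log2 fold change of 7.19 (SE 0.137, adjusted p = 1.69e-11). Ls9g101820.2, also without a description, went from 0.158, 0.693 and 0.107 CPM to 58.4, 78.1 and 64.0 CPM. These were the largest rises, on that scale, of the genes with no description. In mean CPM the order was reversed, with a 209-fold rise of Ls9g101820.2 and a 162-fold rise of Ls4g84040.2.

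On the CPM + 1 scale, the largest falls of described genes after LsCBF12 were led by a gene described as a Eukaryotic translation initiation factor 3 subunit (Ls1g83221.1). It had 33.6, 27.7 and 28.5 CPM at 4 h and 1.12, 0.848 and 1.21 CPM at 7 d, with a log2 fold change of -3.91 (SE 0.190, adjusted p = 4.91e-08). Its mean at 4 h differed from that at 0 h by less than the spread, 29.9 ± 3.23 CPM against 29.7 ± 4.42 CPM (SD, n = 3). Metalloendoproteinase 1 (Ls3g125760.3), a secreted protease, had 109, 50.4 and 182 CPM at 4 h, with replicate 2 well below the others, and 7.00, 7.59 and 8.85 CPM at 7 d. DMR6-LIKE OXYGENASE 2 (Ls4g110260.1) went from 30.0, 26.2 and 44.8 CPM to 6.41, 2.35 and 0.948 CPM. Butyrate--CoA ligase AAE11 (Ls3g67720.1), a peroxisomal enzyme that activates fatty acids, fell from 10.3, 7.57 and 12.2 CPM to 0.214, 0.0385 and 0.0527 CPM. Its mean was 98.6-fold higher at 4 h, against 28.2-fold for Ls1g83221.1, so the order of the falls depends on the added 1 CPM. A gene named after the bacterial aminoacrylate hydrolase RutD (Ls2g136261.2) fell by 3.07 on the log2 scale, from 29.2, 27.5 and 27.6 CPM to 2.35, 2.66 and 2.37 CPM.

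The largest falls with no description, on the CPM + 1 scale, were those of Ls6g44180.1 and Ls5g30860.1. Ls6g44180.1 had 253, 279 and 269 CPM at 4 h and 4.97, 8.44 and 8.48 CPM at 7 d, with a log2 fold change of -5.04 (SE 0.290, adjusted p = 1.59e-07). Ls5g30860.1 had 167, 154 and 173 CPM at 4 h and 7.00, 6.24 and 6.38 CPM at 7 d, and among its other samples 24 h replicate 3 stood apart (4.49, 6.85 and 35.1 CPM at 24 h). In DESeq2 this gene had a log2 fold change of -4.79 and no adjusted p-value.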

How the data were processed

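Reads (150 bp, paired-end) were mapped by the authors to version 8 of the lettuce genome with STAR 2.5.2 and assigned to genes with featureCounts. The deposited values are CPM, scaled by library size alone. All of them (100%) are whole multiples of 1 read (tolerance 0.01), so reads were recovered. Strand and multi-mapping settings are not given in the sources used here. All 12 samples entered 1 limma 3.58.1 model (R 4.3.3) on log2(CPM + 1), and edgeR 4.0.16 (quasi-likelihood, TMM) and DESeq2 1.42.0 were run on the recovered reads. Alternatives varied the pseudocount, filter, scaling, samples, block, threshold and replicates left out.

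Gene IDs are in the study's short form, and descriptions came from its list of cold-regulated genes, held here in part (linkage groups 0 to 3 in full). The members and lists were chosen with earlier results of these data known. Genes were named by rule: each LsCBF and photosynthesis gene, at most 3 called members per list with the largest change, a mean of at least 1 CPM and groups that do not overlap, and the 10 described and 2 undescribed genes with the largest rise and fall. Further list members were chosen after their values were seen.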

Additional observations from a re-analysis of the deposited data

How the results depend on the processing

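The number of genes past the threshold (2310) stayed within 1.5 times under every setting but 1. A limma test against a 2-fold change itself (treat) left 403 genes, 90 higher and 313 lower. Genes higher at 7 d numbered 592 under RLE normalization, and genes lower at 7 d numbered 2260 in edgeR and 2372 in DESeq2. A pseudocount of 0.1 gave 3151 genes, 1338 higher and 1813 lower. Leaving out each replicate of 4 h and 7 d in turn gave 2259 to 2375 genes, 909 to 965 higher and 1328 to 1454 lower, and 90.4 to 94.9% of the calls remained. Without 0 h replicate 3, a setting added after the data were seen, 2331 genes were called.

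Same-numbered replicates of 4 h and 7 d had correlations of their deviations of 0.19, 0.18 and -0.03. Those with unlike numbers had -0.25 to 0.13. With 3 replicates in each group, these values cannot decide whether the numbers pair them. With the replicate number as a block 2322 genes were called (927 higher and 1395 lower), 2307 of them shared, and no call of a named gene changed.

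Of 132 named genes tested, 122 were called, and 64 of these also by treat. Under the other settings 13 of the 132 changed their call or sign at least once. Alpha carbonic anhydrase 7 (Ls1g51401.1) changed sign, from -0.02 to 0.07 without 4 h replicate 2 and to 0.18 without 7 d replicate 3, within a range of -0.20 to 0.18 when each replicate was left out. MYB15 was also lost with a pseudocount of 0.1 (adjusted p = 0.0119). Desaturases numbered 5 in DESeq2, and flavonoid genes 5 with a pseudocount of 0.1 or without 4 h replicate 2. Genes near the floor of 3 reads are limited by depth, and their calls differ between limma and the count tests.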
